A study of Mus musculus with 6 samples.

Results

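Transcripts of the matrix metalloproteinases (Mmp), the membrane-anchored ADAM proteases (Adam), the secreted ADAMTS proteases and their relatives (Adamts, Adamts-like) and the tissue inhibitors of metalloproteinases (Timp) were measured in brown adipose tissue by polyA RNA sequencing. Genes were taken by symbol, as every row starting with Mmp, Timp or Adam followed by a digit, or with Adamts. That gave 84 of the 24016 genes of the deposited table: 23 Mmp, 33 Adam, 19 Adamts, 5 Adamts-like and 4 Timp genes. A mean of at least 0.5 FPKM (fragments scaled by transcript length and by mapped fragments) over the 6 libraries was reached by 26 of them, 6 Mmp, 8 Adam, 7 Adamts, 1 Adamts-like and all 4 Timp genes, and these were tested. Just inside this minimum lay Adamts10 at a mean of 0.549 and Adam11 at 0.570 FPKM, and just outside it Adam19 at 0.421 and Mmp23 at 0.411 FPKM. The compared groups were 3 libraries labelled AdIl17rc KO, whose label and series title point to loss of the IL-17 receptor subunit Il17rc in adipocytes, and 3 libraries labelled WT, all from C57BL6 mice. The labels give no age, no Cre driver or deleted exon, and do not say whether each library is 1 animal, so the tests measure only the spread between these libraries.

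Metalloproteinases of these families hold a zinc ion in the active site and are made as inactive precursors. Mmp enzymes cut collagens, proteoglycans and other matrix proteins, Adam enzymes mostly cut the outer part of membrane proteins free (shedding), and Adamts enzymes process procollagens and large proteoglycans such as versican. The Timp proteins bind the active site and block it, and fat tissue depends on this balance when its capillaries and fat cells grow or shrink.

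The 300 bases around the annotated start (250 before it and 50 after it) are shown for 4 of the genes that the results below turn on: Timp3, the gene with the highest level, Mmp3, and Adamts1 and Adamts9, whose groups stayed apart on both scales used below. The sequences are those of RefSeq on build GRCm38.p6, read 5′ to 3′ on the gene's strand. Timp3 lies at chr10:86300162-86300461 on the plus strand, Mmp3 at chr9:7445572-7445871 on the plus strand, Adamts1 at chr16:85803064-85803363 on the minus strand and Adamts9 at chr6:92943485-92943784 on the minus strand. Capitals mark matches on either strand to the AP-1 motif TGANTCA, the TATA box TATAAA and the GC box GGGCGG, and no match overlaps another in these windows.
Timp3: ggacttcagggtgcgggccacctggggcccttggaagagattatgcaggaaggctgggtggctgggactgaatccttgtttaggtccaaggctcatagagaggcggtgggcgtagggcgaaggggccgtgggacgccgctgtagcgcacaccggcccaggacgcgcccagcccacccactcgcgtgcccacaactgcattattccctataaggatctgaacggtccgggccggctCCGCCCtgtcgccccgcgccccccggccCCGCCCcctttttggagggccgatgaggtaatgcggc
Mmp3: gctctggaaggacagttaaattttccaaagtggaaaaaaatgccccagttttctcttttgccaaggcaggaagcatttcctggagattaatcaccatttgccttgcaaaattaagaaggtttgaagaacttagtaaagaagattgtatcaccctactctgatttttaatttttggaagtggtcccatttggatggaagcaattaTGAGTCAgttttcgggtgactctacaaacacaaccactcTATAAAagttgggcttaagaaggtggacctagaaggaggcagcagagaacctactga
Adamts1: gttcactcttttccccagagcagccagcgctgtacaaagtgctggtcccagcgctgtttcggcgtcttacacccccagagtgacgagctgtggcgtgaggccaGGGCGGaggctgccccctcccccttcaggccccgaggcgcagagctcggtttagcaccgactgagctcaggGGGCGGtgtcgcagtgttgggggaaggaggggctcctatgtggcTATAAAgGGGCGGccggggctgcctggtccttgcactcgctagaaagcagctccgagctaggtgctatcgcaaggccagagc
Adamts9: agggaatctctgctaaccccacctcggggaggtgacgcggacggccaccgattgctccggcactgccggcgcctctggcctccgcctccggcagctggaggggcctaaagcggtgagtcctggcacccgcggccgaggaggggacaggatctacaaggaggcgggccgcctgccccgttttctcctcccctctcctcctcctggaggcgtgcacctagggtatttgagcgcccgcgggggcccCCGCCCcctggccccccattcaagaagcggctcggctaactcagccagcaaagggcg
Mmp3, with 40.0% G and C in its window, held an AP-1 match at -46, an element known from the induction of stromelysin genes, and a TATA box at -7. Adamts1 held a TATA box at -32 and GC boxes at -147, -76 and -25, whereas Timp3 and Adamts9, with 67.0% and 70.0% G and C, held GC boxes only. RefSeq windows were matched for 17 of the 26 tested genes, and 1 of the 17 held the AP-1 motif, against 7.81% of all 32851 windows. A TATA box stood in 2 of the 17 (13.6% of all windows) and a GC box in 14 of the 17 (35.7% of all windows). A match describes these letters and is not evidence of binding.

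Some features of the libraries bear on all values. Depth, approximated from the value of a single fragment among low values, was 31.6 to 36.3 megafragments in knockout libraries and 33.1 to 39.0 megafragments in wild-type libraries. Over the 26 tested genes this corresponds to about 33 fragments (Adamts10 in knockout library 3) to 11929 fragments (Timp3 in knockout library 1) in a library. Knockout library 2 carried 38.2% of its FPKM sum in the feature Mir6236. On the leading principal component (48.0% of the variance) the knockout libraries were at -8.11, -31.5 and -31.1, and wild-type library 1, at 53.2, stood apart from the other wild-type libraries (9.17 and 8.29). The 12 skeletal muscle markers together reached 304, 534 and 1.90 FPKM in knockout 1, 2 and 3, against 3.15, 2.41 and 40.2 FPKM in wild type 1, 2 and 3. The brown fat marker Ucp1 was at 2534 to 2979 FPKM in knockout and 1976 to 2577 FPKM in wild type. The targeted gene Il17rc had 1.32, 0.619 and 0.530 FPKM in knockout and 3.21, 2.28 and 2.02 FPKM in wild type, with no overlap. It did not pass over all genes (adjusted p = 0.151 by limma). All knockout libraries lay below all wild-type libraries for 31.7% of all tested genes as deposited.

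As deposited, all 26 tested protease and inhibitor genes had a negative log2 fold change (knockout over wild type, on log2(FPKM + 0.5)), and so did 87.6% of all 10864 tested genes. In FPKM, the mean of Timp4 was higher in knockout (13.7 ± 8.53 SD, against 12.7 ± 2.17 in wild type, n = 3 each). The median log2 fold change was -0.46 over the 26 genes and -0.29 over all genes. Fold changes relative to the median gene were therefore taken from a second fit after median-of-ratios scaling ("scaled"), in which 20 of the 26 (76.9%) were lower and 6 higher, beside 50.4% of all genes lower, with medians of -0.21 and -0.0017. No gene of the 26 passed an adjusted p of 0.05 by limma in either direction on either scale. The background was 0.0092% called in each direction on each scale, and the smallest adjusted p of the 26 was 0.154 as deposited and 0.240 scaled. At an unadjusted limma p under 0.05, 13 of the 26 (50%) were lower as deposited against 24.8% of all genes, and 6 (23.1%) scaled against 8.61%. All knockout libraries lay below all wild-type libraries for 12 of the 26 (46.2%, background 31.7%) as deposited, and for 4 (15.4%, background 12.5%) after scaling, a share near the background. Counting either direction, the 12 became 19 without knockout library 1, where the share over all genes was 64.0%, and the scaled count of 5 became 9 without knockout library 1 (all genes 47.1%), 11 without knockout library 3 (33.7%) and 9 without wild-type library 3 (36.4%).

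**Figure D1:**
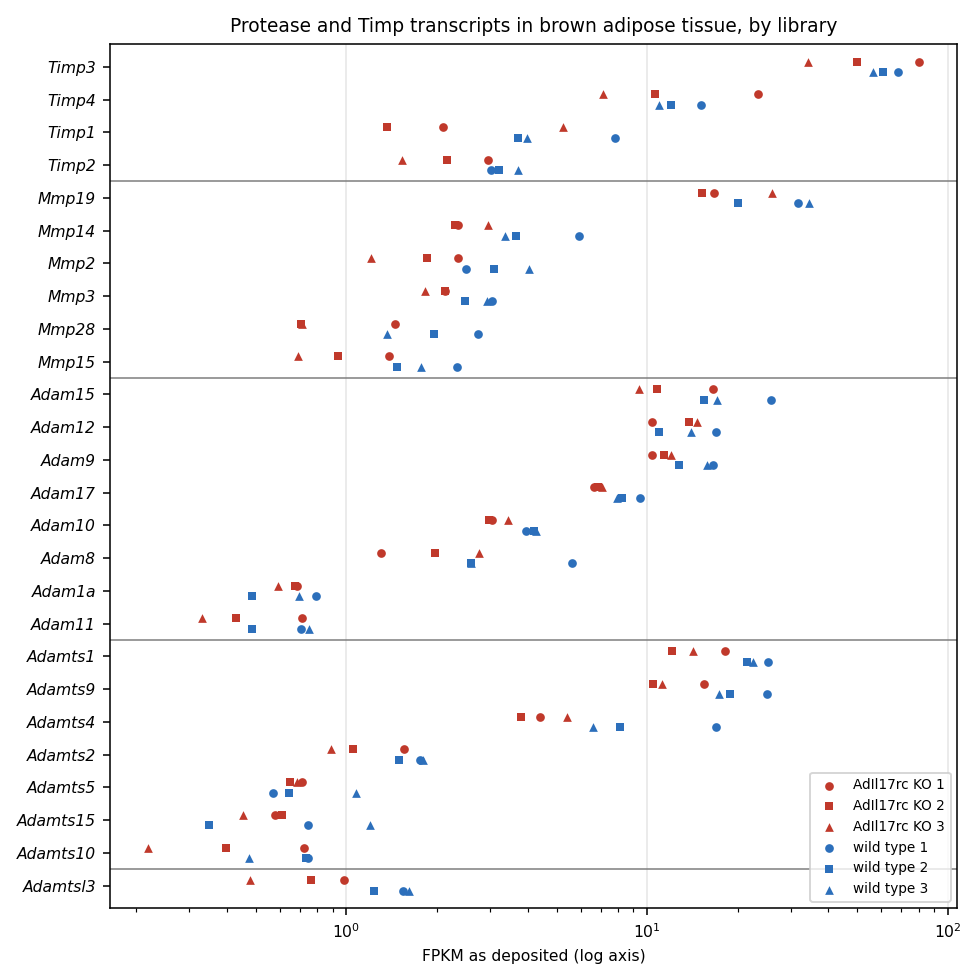
FPKM as deposited (log axis) of the 26 tested genes in each library, knockout points in red above wild-type points in blue, with horizontal lines between the Timp, Mmp, Adam, Adamts and Adamts-like genes. Timp3 stands highest, between 34.1 and 80.03 FPKM in knockout and 56.5 and 68.0 FPKM in wild type, and Adamts1, Adamts9 and Adamts4 show separate groups.

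**Figure D2:**
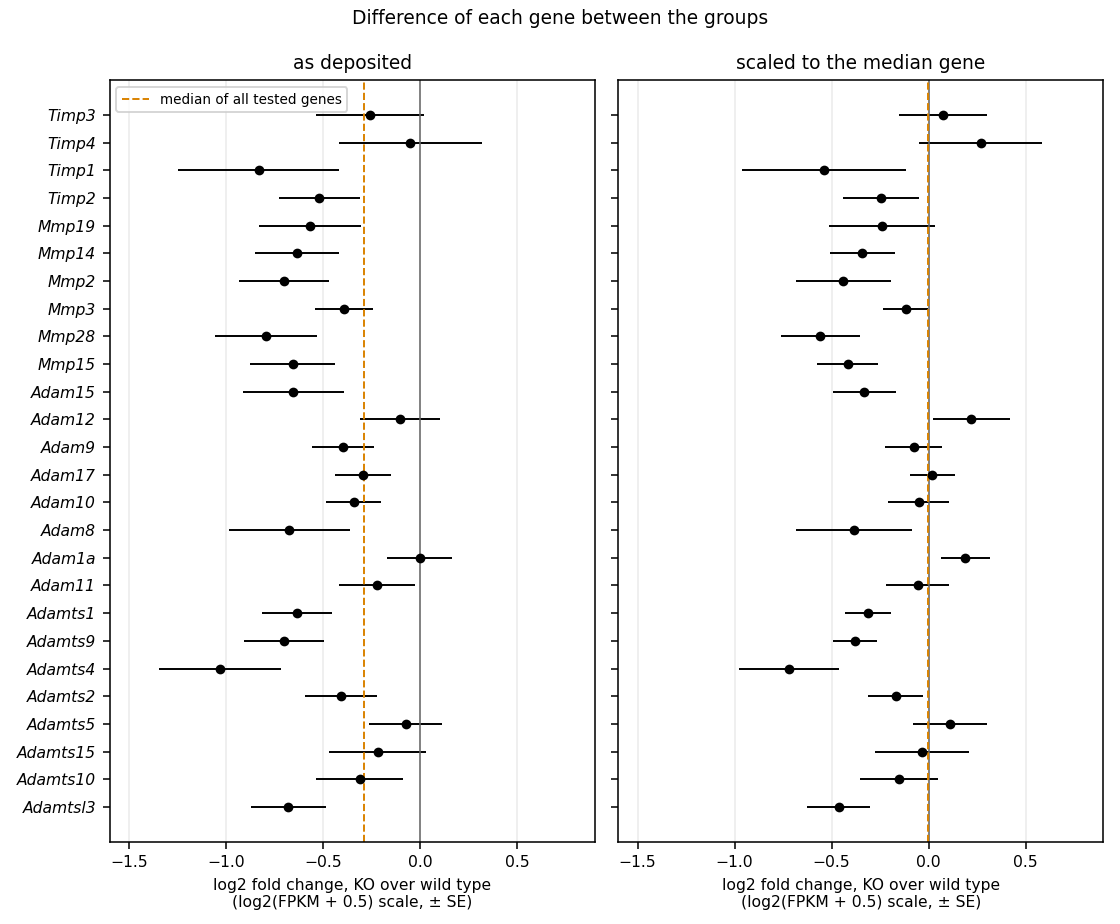
Log2 fold change of each gene, knockout over wild type, with its SE (3 libraries per group), as deposited on the left and scaled to the median gene on the right. The dashed line is the median of all tested genes (-0.29 and -0.0017); as deposited all 26 points lie below 0, and scaled 20 do.

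The inhibitors were dominated by Timp3, the one family member that binds to the matrix and also blocks Adam17 and several Adamts enzymes. Timp3 had 80.03, 50.01 and 34.1 FPKM in knockout 1, 2 and 3 and 68.0, 61.0 and 56.5 FPKM in wild type 1, 2 and 3. Timp4, the inhibitor most typical of heart and fat, was at 23.3, 10.6 and 7.14 FPKM in knockout and at 15.1, 11.99 and 10.96 FPKM in wild type. For both genes the knockout libraries straddled the wild-type range, with knockout library 1 above it and libraries 2 and 3 below it. Their log2 fold changes were -0.26 ± 0.28 and -0.05 ± 0.37 (SE) as deposited and turned to 0.07 ± 0.23 and 0.27 ± 0.32 after scaling. The wild-type libraries varied little by comparison: the SD of Timp3 was 23.3 FPKM around a mean of 54.7 in knockout and 5.76 around 61.8 in wild type (n = 3 each). Exons of Timp4 overlap those of the oppositely oriented gene Syn2, which was at 1.43 FPKM in knockout and 1.96 in wild type, and without a stated strand setting reads of the pair cannot be told apart.

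Timp1, an inhibitor induced by inflammatory cytokines, was at 2.09, 1.37 and 5.27 FPKM in knockout and at 7.79, 3.73 and 3.99 FPKM in wild type. Knockout libraries 1 and 2 lay below every wild-type library and knockout library 3 lay within their range. The log2 fold change was -0.83 ± 0.41 (SE; scaled -0.54 ± 0.42). Timp2, which takes part in the activation of pro-Mmp2 at the cell surface as well as in inhibition, was at 2.95, 2.16 and 1.53 FPKM in knockout and at 3.01, 3.21 and 3.71 FPKM in wild type. Its groups did not overlap as deposited (log2 fold change -0.52 ± 0.21) but did after scaling (-0.25 ± 0.20). The inhibitors thus split by library: Timp1 was highest of the knockout libraries in library 3, where Timp2, Timp3 and Timp4 were lowest.

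Among the tested Mmp genes Mmp19, a secreted protease found in vessel walls and stroma, held 63.3% to 77.9% of the summed Mmp FPKM in knockout libraries and 61.3% to 71.9% in wild-type libraries. Mmp19 was at 16.6, 15.2 and 25.9 FPKM in knockout and 31.6, 20.1 and 34.5 FPKM in wild type, with knockout library 3 inside the wild-type range (log2 fold change -0.57 ± 0.26 SE, scaled -0.24 ± 0.27). Its exons overlap those of the oppositely oriented Tmem198b (1.70 FPKM in knockout and 2.28 in wild type).

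Mmp14, the membrane-anchored collagenase that activates pro-Mmp2, was at 2.35, 2.30 and 2.95 FPKM in knockout and at 5.92, 3.66 and 3.37 FPKM in wild type, so the groups did not overlap as deposited. Its log2 fold change was -0.63 ± 0.22 (SE; adjusted p = 0.164 by limma) and -0.34 ± 0.17 scaled. Mmp2, the gelatinase of fibroblasts, was at 2.34, 1.85 and 1.20 FPKM in knockout and at 2.51, 3.10 and 4.04 FPKM in wild type. Here too the groups were apart as deposited, but by a narrow gap between knockout library 1 and wild-type library 1, and the log2 fold change was -0.70 ± 0.23 (scaled -0.44 ± 0.25, with overlap). Mmp14 and Mmp2 differed in which libraries were low: Mmp14 was lowest in knockout libraries 1 and 2 and Mmp2 in knockout library 3.

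Mmp3, the stromelysin whose promoter is printed above, was at 2.12, 2.13 and 1.83 FPKM in knockout and at 3.04, 2.48 and 2.94 FPKM in wild type. The log2 fold change of -0.39 ± 0.15 (SE) was -0.12 ± 0.12 after scaling, where the groups overlapped, and -0.31 ± 0.10 with GC and length correction added, where they were apart. Mmp15, another membrane-anchored protease, was at 1.39, 0.939 and 0.690 FPKM in knockout and at 2.34, 1.47 and 1.77 FPKM in wild type. It was the 1 Mmp gene whose groups stayed apart after scaling (log2 fold change -0.66 ± 0.22, scaled -0.42 ± 0.16), but with GC and length correction added it was at -0.16 ± 0.11 with overlap. Mmp28 (epilysin) was at 1.45, 0.705 and 0.709 FPKM in knockout and at 2.75, 1.95 and 1.37 FPKM in wild type, with knockout library 1 just above wild-type library 3. It had the most negative fold change of the Mmp genes, -0.80 ± 0.26 as deposited and -0.56 ± 0.20 scaled. All 6 tested Mmp genes were negative on both scales and also with a GC and length correction added to scaling (median -0.27), and none passed over all genes.

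The Adam genes divide into broadly expressed sheddases and members with narrower roles. Adam15, present on endothelial cells, was at 16.6, 10.8 and 9.37 FPKM in knockout and at 25.8, 15.5 and 17.1 FPKM in wild type, with overlap through knockout library 1 (log2 fold change -0.65 ± 0.26 SE, scaled -0.33 ± 0.16). Adam9, a sheddase with a wide range of targets, was at 10.4, 11.3 and 12.02 FPKM in knockout and at 16.5, 12.8 and 15.8 FPKM in wild type. Adam17 (TACE), which releases TNF and ligands of the EGF receptor, was at 6.67, 6.84 and 7.07 FPKM in knockout and at 9.44, 8.22 and 7.96 FPKM in wild type. The groups of Adam9 and Adam17 were apart as deposited. Adam10, which cuts Notch receptors and cadherins, was apart as well, at 3.06, 2.97 and 3.44 FPKM in knockout and 3.94, 4.19 and 4.26 FPKM in wild type. These 3 sheddases lay close to the median gene: their log2 fold changes were -0.40, -0.29 and -0.34 as deposited and -0.08 ± 0.15, 0.02 ± 0.12 and -0.05 ± 0.16 (SE) scaled, with overlap. The sign of Adam17 turned with median-of-ratios scaling but not with upper-quartile scaling (-0.0030) or GC and length correction (-0.0147). Exons of Adam17 overlap those of the oppositely oriented Iah1 (20.4 FPKM in knockout and 23.6 in wild type).

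Adam12, a protease of regenerating muscle and of fat-cell precursors, was at 10.3, 13.8 and 14.6 FPKM in knockout and at 16.9, 10.95 and 14.0 FPKM in wild type. Its log2 fold change was -0.10 ± 0.21 (SE) as deposited and 0.22 ± 0.20 scaled, the highest scaled value of the 8 Adam genes. The summed muscle markers were at 304, 534 and 1.90 FPKM in knockout 1, 2 and 3 and at 3.15, 2.41 and 40.2 FPKM in wild type 1, 2 and 3. Whether muscle transcripts have a part in the Adam12 values was not tested. Adam8, a protease of neutrophils and macrophages, was at 1.30, 1.96 and 2.76 FPKM in knockout and at 5.60, 2.60 and 2.60 FPKM in wild type. Knockout library 3 lay above 2 of the wild-type libraries, and the log2 fold change was -0.67 ± 0.31 (scaled -0.38 ± 0.30). Adam1a, known for its role in sperm, was at 0.683, 0.672 and 0.590 FPKM in knockout and 0.790, 0.484 and 0.697 FPKM in wild type, and is uncertain because its exons overlap Mapkapk5 (10.1 FPKM in knockout and 13.4 in wild type) and because Adam1b is its close relative. It was the 1 gene whose knockout libraries all lay above the wild-type libraries after scaling (scaled log2 fold change 0.19 ± 0.13). Adam11, a member without protease activity that is best known from neurons, was at 0.713, 0.430 and 0.330 FPKM in knockout and at 0.708, 0.486 and 0.750 FPKM in wild type, with overlap.

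The secreted Adamts proteases included genes with separate groups on both scales. Adamts1, Adamts9 and Adamts4, which cut versican and other proteoglycans, together made up 90.7% to 93.2% of the summed FPKM of the tested Adamts genes in knockout and 91.0% to 94.6% in wild type. Adamts1 was at 18.2, 12.1 and 14.2 FPKM in knockout and at 25.2, 21.5 and 22.4 FPKM in wild type. Adamts9 was at 15.4, 10.4 and 11.2 FPKM in knockout and at 24.9, 18.8 and 17.3 FPKM in wild type. Both genes had separate groups as deposited and after scaling. The mean of Adamts1 was 14.8 ± 3.11 FPKM in knockout and 23.0 ± 1.89 FPKM in wild type (SD, n = 3 each), which is -0.64 ± 0.18 in log2 (SE; adjusted p = 0.154 by limma; scaled -0.31 ± 0.12, adjusted p = 0.256). The mean of Adamts9 was 12.3 ± 2.69 FPKM in knockout and 20.3 ± 4.05 FPKM in wild type, which is -0.70 ± 0.21 in log2 (adjusted p = 0.155 by limma; scaled -0.38 ± 0.11, adjusted p = 0.240). With GC and length correction added, both were at -0.22 and their groups overlapped. By exact permutation (two-sided) each gene had p = 0.1, the smallest that 3 against 3 libraries allow.

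Adamts4 had the most negative log2 fold change of the 26 genes on the deposited scale, -1.03 ± 0.31 (SE, limma adjusted p = 0.158), and -0.72 ± 0.26 scaled. It was at 4.39, 3.82 and 5.40 FPKM in knockout and at 16.9, 8.11 and 6.59 FPKM in wild type. The groups were apart as deposited, overlapped after scaling, and wild-type library 1 held a far higher value than the other libraries. Without wild-type library 1 the log2 fold change was -0.65, and -0.45 scaled.

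The remaining Adamts genes were low. Adamts2, a procollagen peptidase, was at 1.55, 1.05 and 0.889 FPKM in knockout and at 1.75, 1.498 and 1.80 FPKM in wild type, with overlap (log2 fold change -0.41 ± 0.18 SE, scaled -0.17 ± 0.14). Adamts5, an aggrecanase, was at 0.712, 0.651 and 0.686 FPKM in knockout and at 0.571, 0.642 and 1.08 FPKM in wild type, so the knockout libraries lay inside the wild-type range. Adamts15, also a proteoglycan-cutting enzyme, ranged from 0.452 to 0.611 FPKM in knockout and from 0.349 to 1.20 FPKM in wild type. Adamts10, a protease tied to fibrillin microfibrils, ranged from 0.219 to 0.721 FPKM in knockout and from 0.476 to 0.745 FPKM in wild type. Adamtsl3, an Adamts-like matrix protein that lacks the protease domain, was at 0.979, 0.761 and 0.478 FPKM in knockout and at 1.54, 1.23 and 1.62 FPKM in wild type. Its groups were apart on both scales (log2 fold change -0.68 ± 0.19, limma adjusted p = 0.154; scaled -0.46 ± 0.16, adjusted p = 0.254), but overlapped with GC and length correction added (-0.33 ± 0.15).

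**Figure D3:**
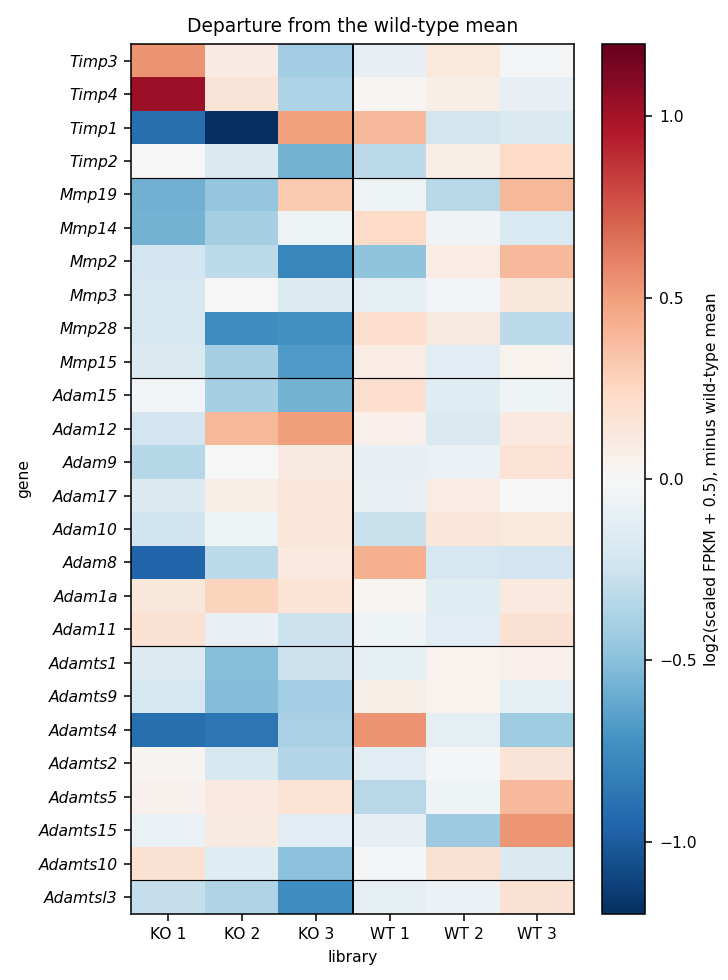
Departure of each gene from its wild-type mean on the log2(scaled FPKM + 0.5) scale, with knockout libraries left of the line and wild-type libraries right of it (red above and blue below the wild-type mean). Timp4 in knockout library 1 (1.02) and Timp1 in knockout library 2 (-1.20) are the extremes, and Adamts9 and Mmp15 are blue in all knockout libraries.

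After scaling, the largest departures from the wild-type mean were 1.02 for Timp4 and -0.96 for Adam8 in knockout library 1, -1.20 for Timp1 in knockout library 2, and -0.78 for Mmp2 in knockout library 3, all on the log2 scale. Timp1, Mmp19, Adam8 and Adamts4 were higher in knockout library 3 than in knockout libraries 1 and 2 (scaled departures in library 3 of 0.49, 0.31, 0.12 and -0.39). These 4 genes were picked after their values were seen. Mmp14, Adam12, Adam9, Adam17, Adam10 and Adamts5 were also highest among the knockout libraries in library 3. Neutrophil markers were also highest among the knockout libraries in library 3: the 11 listed markers in the table summed to 26.5, 17.8 and 63.2 FPKM in knockout libraries 1, 2 and 3 and 80.9, 62.8 and 88.7 FPKM in wild-type libraries. Mmp2, Mmp15, Adam15 and Adamtsl3, picked in the same way, were lowest in knockout library 3 (scaled departures of -0.78, -0.68, -0.57 and -0.74). Timp2, Timp3, Timp4, Adam11, Adamts2, Adamts10 and Adamts15 were also lowest in that library. Pericyte and smooth muscle markers (12 genes) were lowest there too, with sums of 111, 84.1 and 63.5 FPKM in knockout and 130, 114 and 113 FPKM in wild type. Other marker lists had the same orders. Macrophage markers were also highest of the knockout libraries in library 3 (98.0, 97.7 and 121 FPKM). Fibroblast (108, 101 and 83.7 FPKM), Schwann cell (75.5, 71.0 and 68.3 FPKM) and skeletal muscle markers (304, 534 and 1.90 FPKM) were also lowest there. Endothelial and adipocyte markers were lowest in knockout library 2. Whether any of these marker groups has a part in these orders was not tested.

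**Figure D4:**
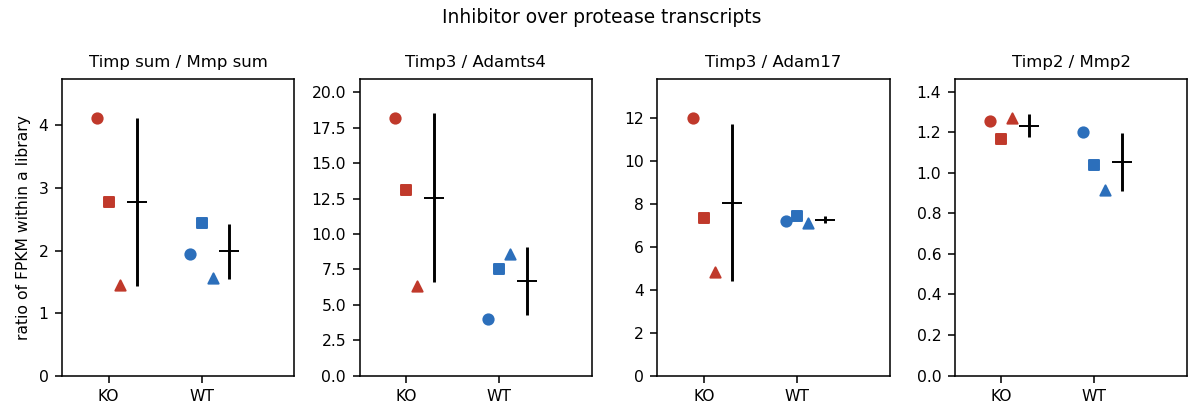
Ratios of FPKM within a library, which scaling between libraries does not alter, for knockout (left) and wild type (right) in each panel; points are libraries, with the mean and SD (n = 3) beside them, and every axis starts at 0. The Timp3 to Adam17 ratio is at 4.83 to 12.01 in knockout and 7.10 to 7.42 in wild type.

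Ratios within a library do not depend on scaling between libraries. The summed Timp over the summed Mmp transcripts was 4.13, 2.78 and 1.44 in knockout libraries and 1.95, 2.44 and 1.57 in wild-type libraries, so the knockout range enclosed the wild-type range. Timp3 over Adam17, an inhibitor and its target, was 12.01, 7.31 and 4.83 in knockout and 7.20, 7.42 and 7.10 in wild type. Knockout library 1 lay above the wild-type range, knockout library 3 below it and knockout library 2 within it. Timp3 over Adamts4 was 18.2, 13.1 and 6.32 in knockout and 4.01, 7.53 and 8.58 in wild type, with knockout library 3 inside the wild-type range. Timp2 over Mmp2 was 1.26, 1.17 and 1.27 in knockout and 1.20, 1.04 and 0.917 in wild type, with overlap through knockout library 2 and wild-type library 1. Adam17 over Adam10, the main sheddases, was 2.18, 2.30 and 2.06 in knockout and 2.39, 1.96 and 1.87 in wild type, again with overlap.

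Of the 58 genes under the minimum, 19 were listed at 0 in all 6 libraries: Mmp1a, Mmp1b, Mmp7, Mmp20, Adamts13, Adamts19 and 13 Adam genes, among them the testis genes Adam18, Adam24, Adam29 and Adam30. In such a table a 0 can be a failed estimate. Another 23 had a mean above 0 but under 0.1 FPKM, and 16 had a mean of 0.1 to 0.5 FPKM. These were not tested. Their values were taken as deposited and were not scaled. In 15 of the 16 the knockout mean was lower. The matching share was not taken over all genes in that range. A negative log2 fold change, a different measure, was found in 87.6% of all tested genes as deposited. With no minimum level it was found in 79.5% of 17495 genes. In 4 of the 16 (25.0%) all knockout libraries lay below all wild-type libraries, against 17.0% of all 2313 genes in that range.

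Mmp9, the gelatinase of neutrophils and macrophages, was 1 of those 4, at 0.147, 0.0921 and 0.260 FPKM in knockout and 0.433, 0.411 and 0.330 FPKM in wild type. The other 3 were Adamts12, Adamts7 and Adam23. Adamts12 was at 0.241, 0.304 and 0.182 FPKM in knockout and 0.390, 0.461 and 0.655 FPKM in wild type. Adamts7, a protease of vascular smooth muscle, was at 0.209, 0.202 and 0.189 FPKM in knockout and 0.351, 0.342 and 0.240 FPKM in wild type, and its exons overlap Tbc1d2b on the opposite strand. Other proteases of inflammation overlapped. Mmp8, the neutrophil collagenase, was at 0.181, 0.0852 and 0.343 FPKM in knockout and 0.413, 0.219 and 0.481 FPKM in wild type. Mmp12, the macrophage elastase, was at 0.273, 0.201 and 0.344 FPKM in knockout and 0.964, 0.214 and 0.0813 FPKM in wild type. Mmp13, the main rodent collagenase, was the exception with a higher knockout mean, resting on library 3: 0.0940, 0.144 and 0.433 FPKM in knockout and 0.122, 0.323 and 0.0306 FPKM in wild type.

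**Figure D5:**
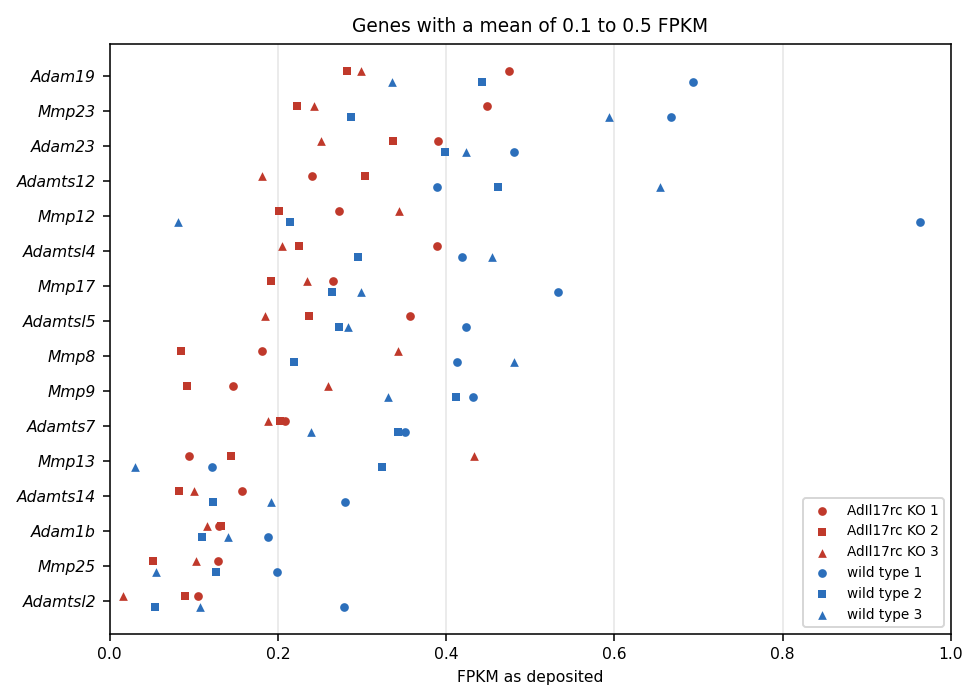
FPKM as deposited of the 16 genes with a mean of 0.1 to 0.5 FPKM, knockout in red above wild type in blue, 1 point per library. Mmp9, Adamts12, Adamts7 and Adam23 have all knockout points left of all wild-type points, and Mmp12 spreads from 0.0813 to 0.964 FPKM within wild type.

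Partners of these proteases were described from lists of known regulators and targets. Of 12 tested regulators of activation, inhibition and clearance, 11 were lower as deposited and 8 scaled. The median log2 fold change was -0.54 (scaled -0.24, and -0.21 with GC and length correction). None of the 12 passed over all genes by limma, and 6 were lower at an unadjusted p under 0.05 (4 scaled). Over all tested genes 87.6% were lower as deposited (50.4% scaled), and 24.8% (8.61% scaled) were lower at that unadjusted p. Lrp1, the endocytic receptor that clears Mmp, Adamts and Timp proteins, was at 8.04, 7.08 and 4.96 FPKM in knockout and 18.7, 14.7 and 16.4 FPKM in wild type (log2 fold change -1.27 ± 0.20 SE, scaled -0.95; limma adjusted p = 0.135). All knockout libraries lay below all wild-type libraries for Lrp1. Pcsk6, a convertase able to remove pro-domains, was at 10.1, 9.88 and 8.23 FPKM in knockout and 16.3, 12.6 and 15.3 FPKM in wild type. Its log2 fold change was -0.62 ± 0.16 (scaled -0.30 ± 0.12). With GC and length correction added it was -0.11 ± 0.13 and the groups overlapped, whereas those of Lrp1 stayed apart (-0.57 ± 0.10).

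All 9 tested partners of the sheddases (iRhoms, tetraspanins and Tks adaptors) were negative on both scales. Their median was -0.59 (scaled -0.31, and -0.16 with GC and length correction). None passed over all genes by limma, and 6 were lower at an unadjusted p under 0.05 (2 scaled). The shares over all tested genes were 87.6% negative (50.4% scaled) and 24.8% lower at that unadjusted p (8.61% scaled). Rhbdf2, the iRhom that brings Adam17 to the surface of immune cells, was at 3.95, 2.06 and 2.14 FPKM in knockout and 6.42, 4.80 and 3.76 FPKM in wild type (log2 fold change -0.79 ± 0.26 SE, scaled -0.50). Sh3pxd2a (Tks5), an adaptor of matrix-degrading cell protrusions, was at 20.1, 14.9 and 10.9 FPKM in knockout and 31.3, 23.9 and 21.9 FPKM in wild type (-0.76 ± 0.24, scaled -0.43). Rhbdf2 overlapped between the groups through knockout library 1. Sh3pxd2a did not overlap as deposited or scaled, but did with GC and length correction added (-0.16 ± 0.12). Of 21 tested proteins shed by Adam10 or Adam17, 20 were lower as deposited and 17 scaled. Their median was -0.47 (scaled -0.17, and -0.18 with GC and length correction). None of the 21 passed over all genes, and 12 were lower at an unadjusted limma p under 0.05 (7 scaled). Notch2, a receptor cut by Adam10, was at 1.498, 1.35 and 1.43 FPKM in knockout and 4.04, 2.63 and 2.70 FPKM in wild type (-0.89 ± 0.18, scaled -0.62).

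Of 20 tested matrix substrates, 19 were lower as deposited and 18 scaled, with a median of -0.80 (scaled -0.52, and -0.36 with GC and length correction), and 0 passed over all genes. At an unadjusted limma p under 0.05, 17 of the 20 were lower as deposited and 13 scaled. Over all tested genes 24.8% (8.61% scaled) were lower at that p, and 87.6% (50.4% scaled) were lower at any p. Thbs1, a matrix protein bound and cut by Adamts1, was at 34.1, 31.1 and 43.2 FPKM in knockout and 136, 69.3 and 99.2 FPKM in wild type (log2 fold change -1.44 ± 0.25 SE, scaled -1.11). Vwf, the substrate of Adamts13, was at 0.447, 0.513 and 0.257 FPKM in knockout and 1.30, 1.07 and 1.21 FPKM in wild type (-0.91 ± 0.17, scaled -0.72), while Adamts13 itself was listed at 0. Both genes had separate groups.

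Marker lists of the cell types of the tissue differed in direction, and in bulk tissue fewer cells of a type and less RNA per cell cannot be told apart. The share of all tested genes that were lower was 87.6% as deposited and 50.4% scaled. Endothelial markers were lower for 12 of 12 genes on both scales (median log2 fold change -0.60, scaled -0.28), with sums of 130 to 201 FPKM in knockout and 209 to 348 FPKM in wild type. Fibroblast markers were lower for 10 of 11 tested genes and 8 scaled (median -0.46, scaled -0.15), with sums of 83.7 to 108 FPKM in knockout and 120 to 190 FPKM in wild type. The fibroblast list shares 5 genes with the list of matrix substrates, so their counts are not separate. Likewise, 1 endothelial marker is also in the list of shed proteins. Pericyte and smooth muscle markers were lower for 10 of 12 on both scales (median -0.55, scaled -0.23). Neutrophil markers were lower for 6 of 6 tested genes (median -0.93, scaled -0.72), while macrophage markers were lower for 5 of 12 as deposited and 2 of 12 scaled (median 0.0086, scaled 0.30), with sums of 97.7 to 121 FPKM in knockout and 68.3 to 161 FPKM in wild type. Adipocyte markers were lower for 10 of 12 as deposited and 5 scaled (median -0.28, scaled 0.05), and Schwann cell markers for 3 of 5 tested and 2 scaled (median -0.06, scaled 0.11). No cell type list had a gene past the threshold over all genes by limma. The part of these marker differences in the protease values was not tested.

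Base composition also went with the fold changes. Across the 26 genes the scaled log2 fold change had a Spearman correlation of -0.54 with the GC content of the longest transcript (42.1% to 60.1% in these genes), and across 10801 tested genes it was -0.44. The genes share the same 6 libraries and are not independent. With GC and length correction the correlation over the 26 was -0.16, and the number of negative genes was 17, with a median of -0.14. Over the 10801 genes the correlation was then -0.017, with 51.1% negative and a median of -0.0057. Among the 26, Adam12, with 49.8% GC, was then the highest at 0.37, and Timp1, with 52.8%, the lowest at -0.61.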

How the data were processed

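PolyA RNA of brown adipose tissue was sequenced in 6 libraries, 3 AdIl17rc KO and 3 WT, grouped and numbered by the labels. The authors deposited 1 table of FPKM values with 24043 rows, of which 27 had dates in place of symbols and were left out. STAR 2.5.1b, Cufflinks 2.2.1, DESeq2 1.10.1 and build mm9 are named in the submitters' processing notes. Which annotation was used, and whether counting used strand, is not given in the sources used here. FPKM holds no counts, so no count model was used.

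All 10864 genes with a mean of at least 0.5 FPKM were fitted as log2(FPKM + 0.5) with limma 3.58.1 (R 4.3.3, empirical Bayes with trend, two-sided, Benjamini-Hochberg over all genes, threshold 0.05), checked on simulated data. The pseudocount understates the change of low genes. A second fit divided each library by its median-of-ratios factor, which ran between 0.836 and 1.00 in knockout and between 1.02 and 1.33 in wild type. GC content and length came from GENCODE M21 (GRCm38), used for names, composition and overlaps only, and were fitted by natural splines with 4 degrees of freedom. Exact permutation tests of 3 against 3 cannot go below 0.1. All 26 tested members are named, since the naming rule (all Timp genes, the highest of each family, then the smallest p) takes each of them; up to 3 partners per list were chosen by smallest p, of which 1 is not reported here. The members and lists were chosen with earlier results of these data known.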

Additional observations from a re-analysis of the deposited data

How the results depend on the processing

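No alternative gave any of the 26 genes an adjusted p under 0.05, and the direction stayed negative in every alternative run for 11 of the 26. Genes with a negative log2 fold change (26 as deposited) counted 17 with GC and length correction, 23 to 26 with each library left out in turn and 16 to 22 when scaled as well. The shares of all genes that were negative were 51.1%, 79.1% to 89.2% and 49.3% to 50.7% in the same order. Genes with separate groups (12 as deposited) counted 5 with median-of-ratios scaling, 6 with upper-quartile scaling, 5 with the replicate block and scaling and 2 with GC and length correction, where 25.4%, 25.2%, 25.4% and 20.8% of all genes were apart. With each library left out in turn they counted 12 to 19 (scaled 5 to 11), where 35.7% to 64.0% of all genes (scaled 31.7% to 47.1%) were apart. Leaving out knockout libraries 1 and 2 together, an alternative chosen after seeing the data because of their muscle transcripts, gave 19 genes with separate groups on either scale, where 76.5% of all genes (scaled 72.7%) were apart, and 17 lower genes when scaled; it leaves 1 knockout library, which is assumed to vary like the others. Correlations between the deviations of same-numbered libraries were 0.10, -0.12 and -0.081. These correlations do not register a shift common to all genes of a library, so they cannot decide whether the numbers pair the libraries. With the replicate block 0 of the 26 passed, as without it, but their smallest adjusted p by limma fell from 0.154 to 0.0519 as deposited. Over all genes as deposited, 4499 were lower at an unadjusted limma p under 0.05 with the block and 2692 without it. After scaling these counts were 985 and 935. Il17rc ranged from -1.46 to -1.05 (scaled -1.18 to -0.85) with each library left out.

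Signs turned as follows, in log2 fold change; the cause was not tested. With median-of-ratios scaling, with or without the replicate block, Timp3 was at 0.073, Timp4 at 0.27, Adam12 at 0.22, Adam17 at 0.019, Adam1a at 0.19 and Adamts5 at 0.11. With upper-quartile scaling Timp3 was at 0.050, Timp4 at 0.25, Adam12 at 0.20, Adam1a at 0.18 and Adamts5 at 0.098. With GC and length correction Timp3 was at 0.091, Timp4 at 0.33, Adam12 at 0.37, Adam1a at 0.23, Adam11 at 0.21, Adamts2 at 0.062, Adamts5 at 0.16, Adamts15 at 0.18 and Adamts10 at 0.063. Adam1a was at 0.0040 with a pseudocount of 0.1. Without knockout libraries 1 and 2 Timp1 was at 0.095 (scaled 0.50) and Adam12 at 0.083 (scaled 0.50), and scaled values were 0.32 for Mmp19, 0.12 for Adam9, 0.16 for Adam17, 0.15 for Adam10, 0.13 for Adam8, 0.17 for Adam1a and 0.18 for Adamts5.

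With each library left out in turn the deposited and scaled ranges were -0.57 to 0.037 and -0.16 to 0.32 for Timp3, -0.51 to 0.31 and -0.11 to 0.59 for Timp4, -0.26 to 0.045 and 0.083 to 0.45 for Adam12, and -0.11 to 0.081 and 0.12 to 0.25 for Adam1a. They were -0.18 to 0.097 and -0.054 to 0.30 for Adamts5 and -0.48 to 0.024 and -0.25 to 0.23 for Adamts15. Deposited values stayed negative for 5 more genes, and over both scales the ranges were -0.51 to 0.058 for Adam9, -0.34 to 0.12 for Adam17, -0.40 to 0.041 for Adam10, -0.38 to 0.046 for Adam11 and -0.51 to 0.018 for Adamts10. Low genes rest on few fragments (about 33 to 118 in a library for Adamts10), but Timp3, whose sign also turned, held about 5847 to 11929. Small differences may have gone undetected, and how far depth or the spread between libraries limits them was not tested.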
